A study of Mus musculus with 62 samples.

Results

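Glycolysis turns glucose into pyruvate and lactate, and most of its steps can be run by more than 1 enzyme, each from its own gene. The 10 genes described here, Hk1, Hk2, Pfkp, Aldoa, Aldoc, Pgk1, Eno2, Pkm, Ldha and Ldhb, were taken by name from the gene abundance tables, out of 53975 gene identifiers. They matched 11 identifiers, because Aldoa is listed under 2 of them. The names cover the steps at which brain cell types are known to use different isoforms. No measured value served as a rule for the choice, but earlier results of these data were known when it was made.

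Of the 62 libraries of the series, the 31 of long RNA were used: 17 of hippocampus tissue and 14 of cultured HT-22 cells. The hippocampus came from mice of the strain APP NL-G-F, which carry the App gene with a humanised amyloid sequence and familial Alzheimer mutations (called APP below), and from C57BL/6J mice (WT). Each mouse gave 1 library from the hippocampi of its 2 sides. Ages were 3, 6 and 12 months, with 3 mice in every group except WT at the youngest age, which had 2. HT-22 is an immortalised cell line from mouse hippocampus, used here at passage 4. Every HT-22 group was given an oligonucleotide with locked nucleic acid bases (LNA) and then a peptide, so none was left untreated. The LNA was either anti-Hsf1 at 150 nM, aimed at the heat shock transcription factor Hsf1, or a scramble control at 50 uM as the labels give it, for 24 h. The peptide, at 30 uM in DMSO, was amyloid beta 1-42 (Aβ42) or a control with the sequence reversed. Under scramble LNA there were 4 libraries for each peptide, and under anti-Hsf1 LNA there were 3. Nothing in the labels says that the HT-22 libraries came from separate cultures, so their p-values measure the spread between libraries, which may be technical.

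Levels are in TPM, a read share corrected for gene length. They were rescaled within the mouse set and within the HT-22 set, by the median over genes of each library's ratio to the mean library, and are called scaled TPM. Changes are differences of log2(scaled TPM + 1), which understates the change of low genes. They were tested with limma, and called means an adjusted p below 0.05 after Benjamini-Hochberg correction over all genes tested. Total RNA of a tissue mixes cell types, so a change in the number of cells of a type and a change in RNA per cell cannot be told apart.

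The libraries differed in ways that touch these genes. Relative depth, taken as the ratio of deposited coverage to FPKM, lay between 1.42 and 3.04 for the tissue and between 0.72 and 2.60 for the cells. Xist, which marks female cells, was high in all 9 APP libraries and in both WT libraries at 3 months, while Ddx3y, a Y-linked gene, was high in the 6 WT libraries at 6 and 12 months. Genotype and sex therefore cannot be told apart at 6 and 12 months, nor age and sex in WT, while all libraries of the APP age comparisons and of the 3-month comparison were high in Xist. Within APP mice Xist still rose from 3 to 6 months by 0.67 and from 3 to 12 months by 0.45 (limma adjusted p = 0.00898 and 0.0271). Summed choroid plexus markers ran from 38.26 to 2427 scaled TPM in the hippocampus. In HT-22, the neuronal markers Rbfox3, Syt1, Snap25 and Gad1 were listed at 0 in every library, and 1 of 8 neuronal markers had a mean of at least 1 TPM, with a sum of 1.42 to 7.43 scaled TPM over the list. Hsf1 itself, the target of the LNA, was at 42.7 to 71.2 scaled TPM over the 14 libraries, and its anti-Hsf1 against scramble differences of -0.15 with reverse peptide and -0.37 with Aβ42 were not called (limma adjusted p = 0.959 and 0.526).

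As background, hexokinase (Hk1, Hk2) traps glucose in the cell, phosphofructokinase (Pfkp) commits it to breakdown, and aldolase (Aldoa, Aldoc) splits the sugar. Phosphoglycerate kinase (Pgk1) and pyruvate kinase (Pkm) make ATP, enolase (Eno2) acts between them, and lactate dehydrogenase (Ldha, Ldhb) interconverts pyruvate and lactate. In brain, Eno2 is known as the neuronal form, Hk1 as the main hexokinase, Aldoc as the astrocytic form, Ldhb as the form of oxidative tissue, and Hk2 and Ldha as forms that hypoxia, growth signals and immune activation raise.

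The hippocampus and the cell line differed in the proportions of isoforms, although Aldoa was above Aldoc and Hk1 above Hk2 in both. Over the 17 hippocampus libraries, Aldoa was the highest of the genes (median 676 scaled TPM, range 533 to 877) and Pkm the next (388, 327 to 458), and the order of these 2 held in all 17 libraries. Eno2 (201), Aldoc (193), Ldhb (170) and Pgk1 (149) followed, and their ranges overlapped: Eno2 was above Aldoc in 13 libraries and Aldoc above Ldhb in 11. Pfkp (100), Ldha (93.6) and Hk1 (71.8) came next, with Pfkp above Ldha in 11 libraries and Ldha above Hk1 in 16. Hk2 was far below, at 1.36 (0.683 to 3.8). In HT-22 cells, Pkm led in all 14 libraries (median 378), followed by Pgk1 (177), Aldoa (175) and Ldha (143), of which Pgk1 was above Aldoa in 9 libraries and Aldoa above Ldha in 11. Hk1 (46.5), Ldhb (33.2) and Pfkp (22.9) were lower, then Hk2 (8.17) and Eno2 (6.41), whose order held in 10 libraries. Aldoc was near 0, with a median of 0.345 and a highest value of 1.44, and was listed at 0 in 2 libraries.

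**Figure D1:**
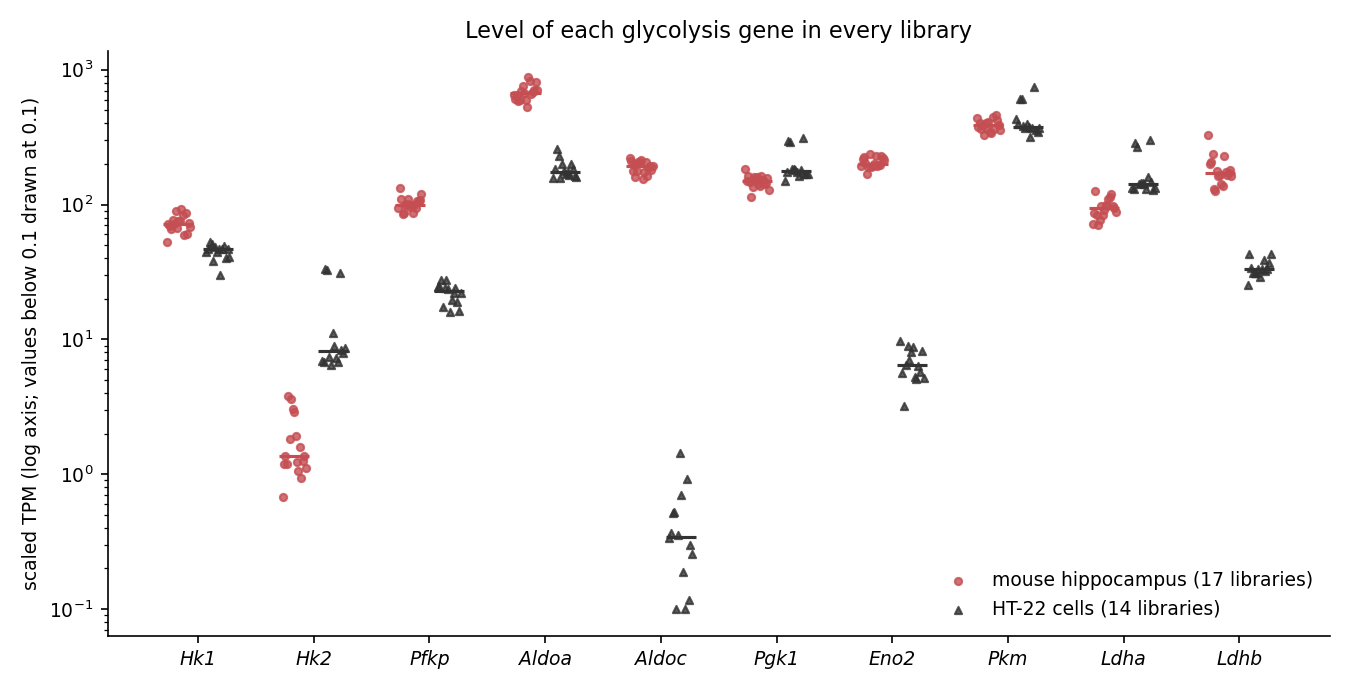
Level of each of the 10 genes in scaled TPM on a log axis, with a point per library and a bar at the median. Circles are the 17 hippocampus libraries and triangles the 14 HT-22 libraries, which were scaled separately; Aldoc and Eno2 lie far lower in the cells, and Hk2 lies higher.

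Shares of an isoform within its step need no scaling, because they are formed inside a library. Aldoc made up 21.9% ± 2.67 (SD, n = 17) of Aldoa plus Aldoc in the hippocampus and 0.23% ± 0.213 (SD, n = 14) in HT-22. Ldhb made up 65.1% ± 5.99 of Ldha plus Ldhb in the hippocampus and 17.7% ± 4.82 in HT-22. The balance was thus on the Ldhb side in the tissue and on the Ldha side in the cells, and no library of either kind overlapped the other (58.0% to 82.0% against 9.68% to 24.7%). Hk2 ran the other way, from 2.35% ± 1.14 of Hk1 plus Hk2 in the hippocampus to 20.7% ± 10.2 in HT-22. Pfkp was 40.0% ± 2.86 of the summed Pfkl, Pfkm and Pfkp in the hippocampus and 25.1% ± 3.28 in HT-22. Tissue and cell line differ in every respect but species and organ of origin and were not compared by a test.

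Enolase shows how near-identical gene copies enter such shares. Eno2 was 63.6% ± 3.3 of Eno1 plus Eno2 in the hippocampus and 4.83% ± 1.85 in HT-22. Eno1, the broadly expressed enolase, has 4 annotated copies with at least 95% identity over at least 100 bases, chiefly Gm4735 and Eno1b. They held 61.5% of the summed Eno1 signal in the hippocampus and 66.2% in HT-22. With the copies counted as Eno1, an addition made after seeing the data, Eno2 came to 40.3% ± 2.92 in the hippocampus and 1.68% ± 0.663 in HT-22. The direction between tissue and cells was the same, but Eno2 was no longer above the rest of the pair in the hippocampus. The same check gave 63.8% in place of 65.1% for Ldhb in the hippocampus and 19.9% in place of 17.7% in HT-22, through the Ldhb copy Gm5514 and 8 copies of Ldha. Of the single genes, Pgk1 had 13.4% of its summed signal in copies in the hippocampus and 14.8% in HT-22, and Pkm had 7.59% and 12.1%. Gapdh, the step before Pgk1, was not usable: it was listed at a mean of 8.85 TPM in the hippocampus, while its 97 copies held 519 TPM. The sources used here do not say how reads that match several copies were assigned.

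**Figure D2:**
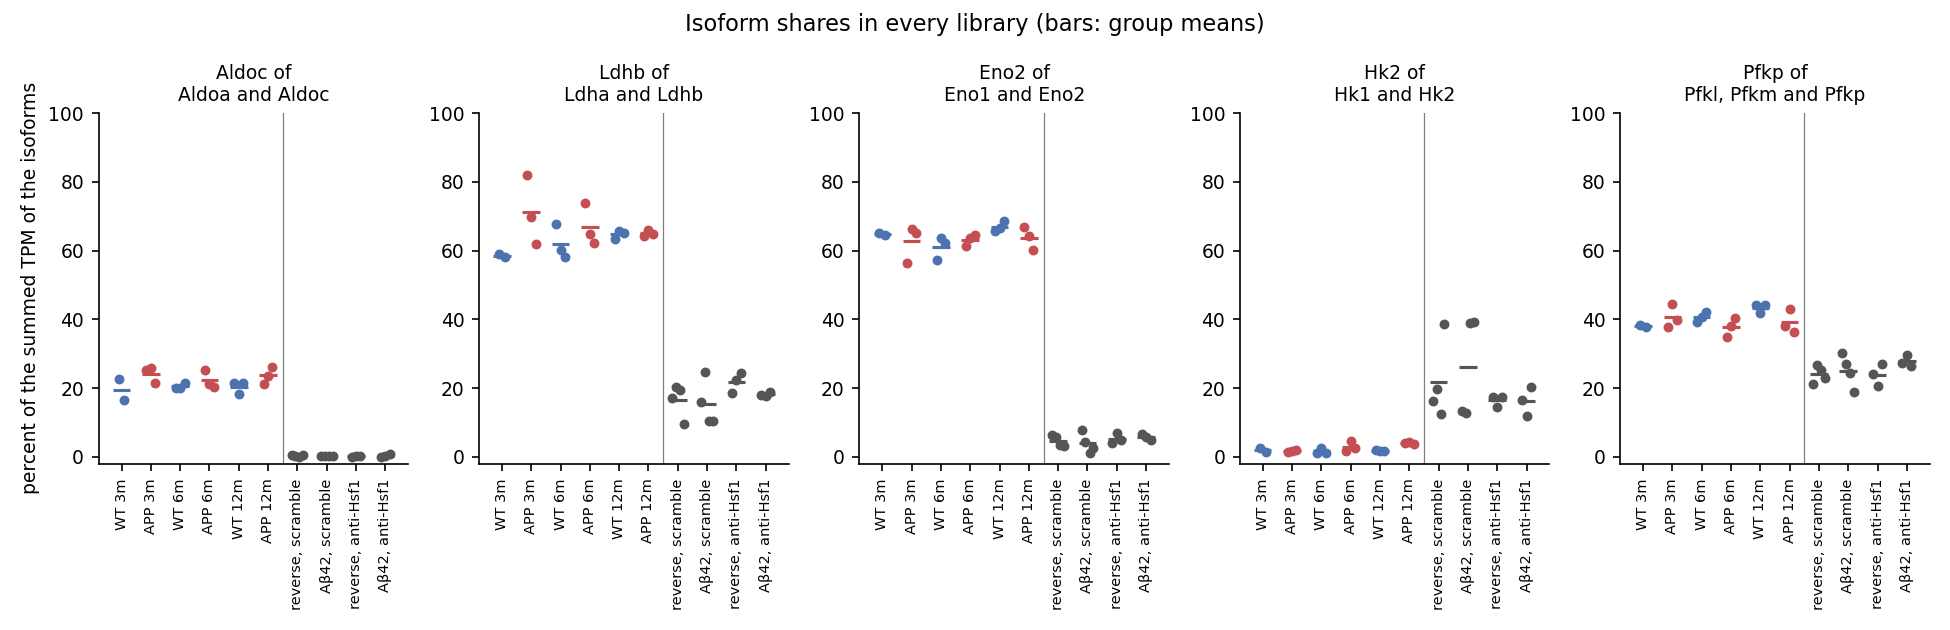
Share of an isoform among the isoforms of its step, in percent of their summed TPM, with a point per library and a bar at the group mean; hippocampus groups are left of the line and HT-22 groups right of it. The share of Aldoc is between 16.5% and 26.2% in the hippocampus and below 1% in HT-22, and the 3 highest Hk2 shares are in scramble LNA libraries.

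In the hippocampus, 1 of the 10 tested identifiers was called in any comparison, Hk2 in APP mice between 3 and 12 months. Hk2 (ENSMUSG00000000628, GRCm38 chr6:82725025-82774454, minus strand) was at 0.683, 1.2 and 1.36 scaled TPM in the 3 APP mice at 3 months. At 6 months it was at 1.19, 3.8 and 1.81, and at 12 months at 3.62, 3.07 and 2.87. The 12-month values all lay above the 3-month values, and 1 mouse at 6 months was as high as the 12-month mice. The rise from 3 to 12 months was 1.02 on the log2 scale (SE 0.25, 95% interval 0.49 to 1.54, limma adjusted p = 0.0368), in a comparison in which 3.35% of all genes were called. WT mice were at 1.93 and 1.23 at 3 months, at 1.05, 1.58 and 0.945 at 6 months, and at 1.25, 1.36 and 1.11 at 12 months. The 3 APP and 3 WT mice thus did not overlap at 12 months, a separation that groups this small also reach by chance. The 12-month difference was 0.90 (SE 0.25, limma adjusted p = 0.206) and was not called, among 0.454% of genes called. The genotype by age interaction was not called either (limma adjusted p = 0.206, 0.448% of genes called).

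The Hk2 call lay near the threshold, at low coverage. Its deposited mean read depth was 1.39 in the median hippocampus library (0.974 to 4.01), against 11.9 for Hk1. The limma adjusted p was above 0.05 without APP 3-month replicate 1 (0.119) or 2 (0.0681), without APP 12-month replicate 1 (0.137), 2 (0.0985) or 3 (0.0974), and without WT 12-month replicate 1 (0.0508). It was also above 0.05 under quantile normalisation (0.0529), with no filter on low genes (0.0636) and in a fit of the 2 groups alone (0.0702). The log2 change lay between 0.87 and 1.12 whichever library was left out, and was 1.52 with a pseudocount of 0.1 in place of 1.

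Microglial markers, and among astrocyte markers chiefly Gfap, were also high where Hk2 was high. The 8 microglial markers summed to 284 to 346 scaled TPM in APP mice at 12 months, to 122 to 134 in APP mice at 3 months, and to 209 in the APP mouse with the high Hk2 value at 6 months, against 118 and 113 in its group. From 3 to 12 months in APP mice, 4 of 8 microglial markers were called higher in limma (all 8 higher, median 1.01). Of 7 astrocyte markers only Gfap was called (2.43, limma adjusted p = 0.00114), with 5 higher and 2 lower (median 0.28). Against WT mice at 12 months, 3 of 8 microglial markers were called higher (7 higher, 1 lower, median 1.02). Gfap was again the only astrocyte marker called (2.04, limma adjusted p = 0.00627), with 6 higher and 1 lower (median 0.16). Over the 17 hippocampus libraries, the genes whose log2 levels were most like that of Hk2, among 7836 with a mean of at least 10 TPM, were Gfap, the astrocyte filament protein (Pearson r = 0.88), and Mpeg1, a macrophage and microglial gene (r = 0.87). In the same APP age comparison 5 of 8 oligodendrocyte markers fell (all 8 lower, median -0.74), and 2 of 7 immediate-early genes fell (all 7 lower, median -1.17). All mouse groups enter the correlations, and the part of cell number in the Hk2 change was not tested. Hk3, a hexokinase of myeloid cells outside the 10 genes, was at 1.15 to 1.83 scaled TPM in APP mice at 12 months and at 0.571 or below in every other mouse group. It fell under the mean level of 1 TPM set for testing.

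**Figure D3:**
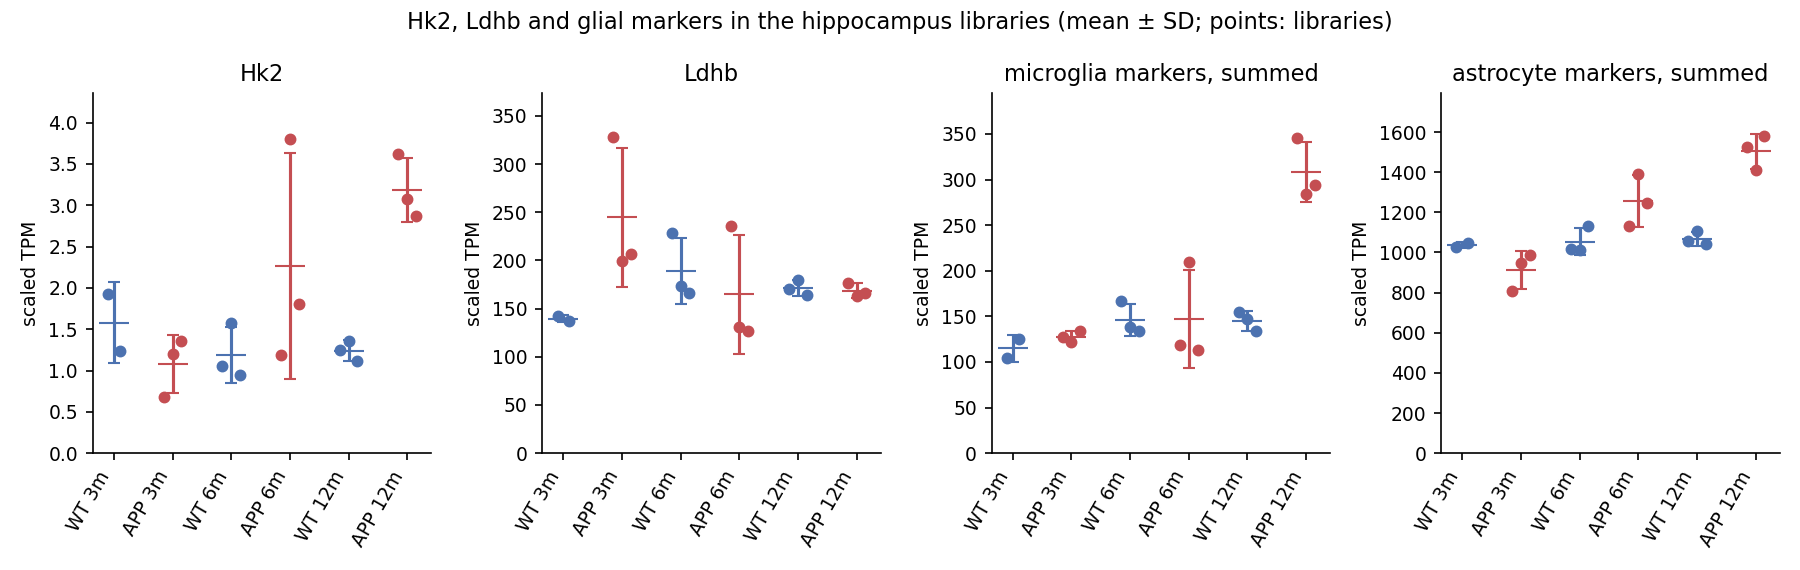
Hk2, Ldhb and the summed microglial and astrocyte markers in scaled TPM by mouse group, with a point per library and the mean ± SD. The group means of Hk2 and of both marker sums are highest in the 12-month APP mice, and the high 6-month Hk2 value of 3.8 comes from the APP mouse with 209 scaled TPM of microglial markers.

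Lactate dehydrogenase gave the other sizeable differences, none of which was called. Ldhb (ENSMUSG00000030246, chr6:142490249-142507957, minus strand) was at 328, 199 and 207 scaled TPM in APP mice at 3 months and at 142 and 137 in WT mice. The groups did not overlap, which with 3 mice against 2 also happens by chance. The difference was 0.77 (SE 0.25, 95% interval 0.24 to 1.29, limma adjusted p = 0.187), where 0.297% of all genes were called. The mouse at 328 also had the highest sums of oligodendrocyte markers (2679) and choroid plexus markers (2427) of all hippocampus libraries and the lowest sum of neuronal markers (1694), and the part of these in its Ldhb value was not tested. By 6 months Ldhb was at 236, 131 and 127 in APP mice and 228, 173 and 166 in WT mice, and at 12 months the groups ran from 163 to 177 and from 164 to 180. The step from 3 to 6 months in APP mice was -0.59 (SE 0.22, limma adjusted p = 0.162, with 2.16% of genes called), and it was called only when APP 6-month replicate 1 was left out (adjusted p = 0.0323). In these 2 Ldhb comparisons the oligodendrocyte markers moved in the direction of Ldhb. All 8 were higher in APP than in WT mice at 3 months (1 called, median 0.50). In APP mice from 3 to 6 months 8 of 8 fell (median -1.09). From 3 to 12 months in APP mice Ldhb changed by -0.50 (SE 0.22, limma adjusted p = 0.267, with 3.35% of genes called). All 8 markers were lower in that comparison too (5 called, median -0.74). In WT mice from 3 to 12 months the directions differed. All 8 markers were lower there (0 called, median -0.47), while Ldhb changed by 0.29 (SE 0.25, limma adjusted p = 0.805). Between APP and WT mice at 6 and 12 months Ldhb differed by -0.25 and -0.02. There 6 and 7 of the 8 markers were higher in APP mice (median 0.03 and 0.28). The part of these markers in the Ldhb differences was not tested. As a share, Ldhb was 82.0%, 69.8% and 61.9% of lactate dehydrogenase RNA in APP mice at 3 months and 58.9% and 58.2% in WT mice.

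Ldha (ENSMUSG00000063229, chr7:46841475-46855627, plus strand) was lower in APP than in WT mice at 6 months. It was at 84.3, 71.0 and 77.1 in APP and at 109, 114 and 120 in WT, with no overlap. Groups of 3 also separate in this way by chance. The difference of -0.56 (SE 0.16, 95% interval -0.89 to -0.23) had a limma adjusted p of 0.0818, in a comparison where 1.43% of genes were called. It fell below 0.05 without APP 3-month replicate 1 (0.0321) or 3 (0.0215), libraries that are not in the comparison but enter the shared estimate of spread. At 12 months the genotypes overlapped (83.3 to 97.9 in APP, 87.4 to 97.9 in WT). On TPM as deposited, described below, the 6-month Ldha difference was 0.15, of the other sign.

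None of the remaining genes was called in the hippocampus. Hk1, the main brain hexokinase, ran from 52.4 to 71.2 in APP mice at 3 months and was 76.0 and 93.4 in WT mice (-0.40, SE 0.18, limma adjusted p = 0.359). Aldoc, the astrocytic aldolase, was at 220, 210 and 176 in APP and at 155 and 173 in WT at 3 months, and at 205, 208 and 213 against 193, 179 and 194 at 12 months. Both pairs of groups stood apart without overlap, yet the changes of 0.29 and 0.15 had limma adjusted p-values of 0.337 and 0.919. With groups this small such separations also arise by chance. How many of all genes stood apart in this way, here or for Hk2, Ldhb and Ldha above, was not computed. Pgk1 in APP mice went from 149 to 184 at 3 months to 114 to 148 at 6 months and 155 to 161 at 12 months, and its 6-month step of -0.33 (SE 0.11) was not called (limma adjusted p = 0.139). Eno2, the neuronal enolase, was among the steadiest, at 169 to 235 in all 17 libraries (coefficient of variation 8.7%), and its change from 3 to 12 months in APP mice was -0.04 (95% interval -0.28 to 0.19). The corresponding change was -0.04 (-0.29 to 0.21) for Pkm and 0.09 (-0.26 to 0.44) for Aldoa. No member was called between 3 and 12 months in WT mice, where 0.0617% of genes were.

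**Figure D4:**
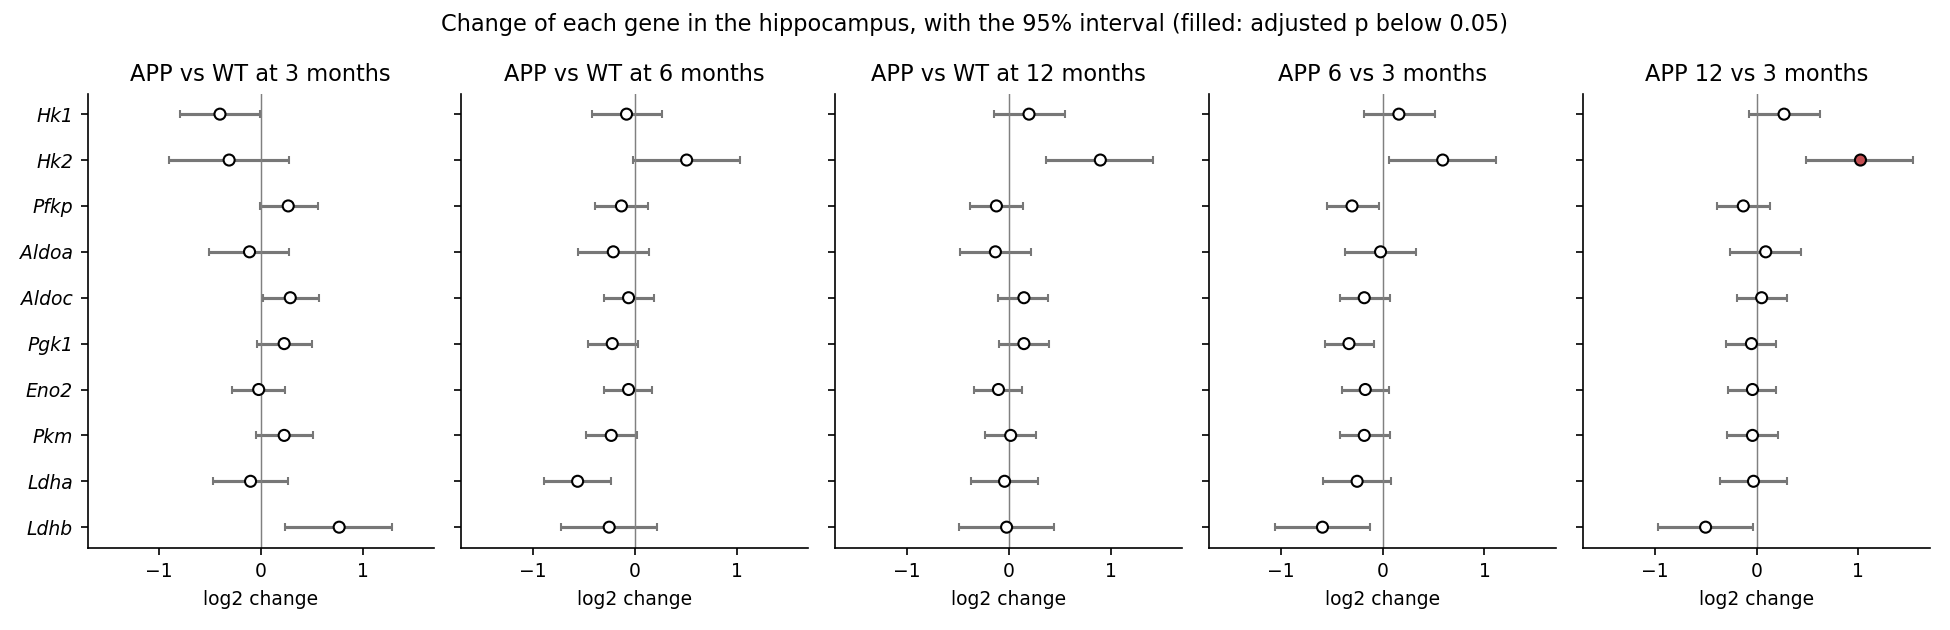
Log2 change of each gene with its 95% interval in 5 hippocampus comparisons, from limma. The only filled point, called at an adjusted p below 0.05, is Hk2 between 3 and 12 months in APP mice at 1.02.

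Counts of direction over the set are a description and mix called and uncalled genes. At 6 months 9 of the 10 tested members were lower in APP than in WT mice, with a median change of -0.17 against 0.00 for all 17840 genes tested. At 3 months 5 were higher and 5 lower (median 0.11), and at 12 months likewise (median 0.00). From 3 to 6 months in APP mice 8 of 10 were lower (median -0.18, against -0.02 for all genes), and from 3 to 12 months 6 of 10 (median -0.04). The genotype by age test gave differences in change from 3 to 12 months of 1.21 for Hk2 and -0.79 for Ldhb, with limma adjusted p-values of 0.206 and 0.222.

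The 6-month directions change with the scaling. On TPM as deposited, which shares each library among coding RNA and abundant noncoding RNA, the median of all genes was 0.60 higher in APP than in WT mice at 6 months. On that scale 8 of the 10 members were called higher (Hk1, Hk2, Pfkp, Aldoa, Aldoc, Pgk1, Eno2 and Pkm, by 0.49 to 0.93), among 10267 genes called higher in all. Set against the median gene at 0.60, Pfkp, Aldoa, Pgk1, Pkm, Ldha and Ldhb were lower and Hk2 higher, as after scaling, but Hk1 (0.63), Aldoc (0.66) and Eno2 (0.65) were slightly above it, where scaling gave -0.08, -0.06 and -0.06. The 9 of 10 lower members thus do not hold on that scale.

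The isoform shares, which no scaling touches, were tested within ages. Averaged over ages, the APP minus WT difference was 3.27 percentage points for the Aldoc share, 1.07 for the Hk2 share and 5.96 for the Ldhb share. The ages were unlike: from 3 to 6 to 12 months the difference was -0.262, 1.34 and 2.14 for Hk2, 12.7, 4.89 and 0.278 for Ldhb, and 4.67, 1.83 and 3.31 for Aldoc. Two-sided exact permutation tests within age gave p = 0.0158, 0.0297 and 0.0663, and none passed after adjustment over the 15 share tests (0.223, 0.223 and 0.331). Eno2 and Pfkp shares differed by -1.13 and -1.44 points (exact p = 0.531 and 0.33), with both signs among the ages. With 3 mice against 3 at 1 age, the smallest exact p is 0.1, and the Hk2 share reached it at 12 months (3.9%, 4.35% and 3.65% in APP mice against 2.04%, 1.84% and 1.61% in WT mice).

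Among other genes of the pathway, 12 of 17 further enzymes and isoforms, 7 of 7 transporters and 10 of 13 regulators passed the filter in the hippocampus. Tpi1, triose phosphate isomerase, was the only one called in any genotype or age comparison. It was at 137, 128 and 129 scaled TPM in APP and at 217, 182 and 166 in WT mice at 6 months (-0.51, SE 0.12, limma adjusted p = 0.0487), in the comparison where 1.43% of all genes were called. On TPM as deposited it was at 169, 147 and 189 in APP and at 150, 144 and 140 in WT mice, so its sign turns there. On that scale the median of all genes was 0.60 higher in APP mice on the log2 scale, a larger rise than that of Tpi1. Set against that median, Tpi1 was lower in APP mice, as after scaling. Slc2a1, the glucose transporter of the blood-brain barrier and astrocytes, was at 15.9 to 21.3 in APP and 12.9 and 14 in WT mice at 3 months (0.38, SE 0.13, limma adjusted p = 0.21). Slc2a3, the neuronal glucose transporter, ran from 23.4 to 40.8 over the 17 libraries and was listed at 0 in all 14 HT-22 libraries. Of 15 genes of the hypoxia-inducible factor list, 13 were tested and none was called.

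By likeness of pattern over the 17 hippocampus libraries, Pgk1 went most closely with Slc25a5 and Slc25a4, mitochondrial ADP/ATP carriers (r = 0.92 for each). Ldhb went with Trap1 (0.88) and Acsbg1 (0.87), Ldha with Mat2b (0.87) and Tusc3 (0.85), and Aldoa with Gm12428 (0.86) and Polr2j (0.83). The next were Aldoc with Ppp1r14a (0.81) and Insig1 (0.80), Pkm with Rpl3-ps1 (0.83) and Uqcc2 (0.81), and Eno2 with Lpcat1 and AI837181 (0.81 for each). Hk1 went with Med24 (0.82) and Armc6 (0.78), and Pfkp with D1Ertd622e (0.80) and Cpeb2 (0.77). Within the set, the highest value was that of Pgk1 and Ldhb (0.76) and the lowest that of Hk2 and Ldhb (-0.53). These values describe 17 libraries that share ages, genotypes and the scaling, and each gene is the best match of 7836 compared.

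In HT-22 cells, no member was called in any peptide or LNA comparison, and few genes of any kind were. Limma called 0% of 17291 genes for Aβ42 against reverse peptide under scramble LNA (857 at an unadjusted p below 0.05), 0% under anti-Hsf1 LNA (804), 0% for anti-Hsf1 against scramble LNA with reverse peptide (631), 0.0231% with Aβ42 (4 genes, 1555 unadjusted) and 0% for the peptide by LNA interaction (889). None of the members reached an unadjusted p below 0.05 in these comparisons. For HT-22, 10 identifiers were tested, with Aldoc left out for its low level and the second Aldoa entry (ENSMUSG00000114515), at a mean of 3.54 TPM, included.

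The spread within the scramble groups was wide, and single libraries show where it lies. Replicates 3 and 4 of Aβ42 with scramble LNA and replicate 4 of reverse peptide with scramble LNA stood apart from the other 11, with summed immediate-early genes (Fos, Egr1 and others) of 1048, 1142 and 1192 scaled TPM against 126 to 198. Hk2 was at 33.3, 32.7 and 30.9 in these 3 libraries and at 6.49 to 11.2 in the others. Ldha was at 287, 269 and 299 against 128 to 161, and Pgk1 at 295, 289 and 310 against 149 to 184. Pkm was at 603, 601 and 740 against 318 to 428. The 3 libraries come from both peptides and from scramble LNA alone. They also had the highest shares of TPM in protein-coding genes (59.4%, 55.5% and 52.8%, against 27.7% to 50.1%), and how many of all genes were high in them in the same way was not computed.

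Hk1 was above the others too, by a small margin (52.3, 50.7 and 49.3 against 30.1 to 48.2). The remaining members overlapped. Ldhb was at 33.7, 31.1 and 32.0 against 25.1 to 42.8, Eno2 at 3.20, 6.44 and 6.38 against 5.05 to 9.67, and Pfkp at 27.5, 17.4 and 24.0 against 16.0 to 27.7. Aldoa was at 257, 227 and 200 against 157 to 201, and Aldoc stayed near 0 at 0.516, 0.528 and 0.918 against 0 to 1.44. The Ldhb share was therefore at its lowest in these libraries (10.5%, 10.3% and 9.68%, against 16.0% to 24.7%) and the Hk2 share at its highest (38.9%, 39.2% and 38.5%, against 11.9% to 20.3%). Among other steps of the pathway, Gpi1 (148, 154 and 161 against 90.1 to 108), Tpi1 (142, 129 and 141 against 78.8 to 108) and Eno1 (256, 232 and 197 against 84.8 to 159) were above the other 11. Pfkm and Pgam1 were above them too, while Pfkl overlapped them (47.1, 35.3 and 42.9 against 25.8 to 36.6). Outside the enzymes, Slc2a1 was at 86.8, 90.6 and 89.6 against 35.4 to 50.2, and the lactate transporter gene Slc16a1 at 50.3, 55.4 and 55.9 against 23.1 to 26.7. Slc16a3, also of the lactate transport list, overlapped the others (3.37, 1.97 and 1.84 against 1.25 to 4.31). So did the regulators Pfkfb3, Pfkfb4 and Pdk1. Vegfa, a target of hypoxia-inducible factor, was at 122, 132 and 139 against 8.36 to 20.5. From the same hypoxia list, Adm (24.6, 20.9 and 18.5 against 7.94 to 16.6) and P4ha1 (64.9, 70.0 and 60.6 against 49.7 to 58.3) were also above the others. Hif1a (58.7, 68.4 and 57.2 against 52.0 to 71.5), Bnip3 (23.2, 22 and 26.9 against 17.7 to 25.9) and Car9 (2.63, 2.34 and 2.83 against 1.68 to 4.82) overlapped the others, as did Ndrg1, Ero1l, Ankrd37 and Egln3. The rest of that list was not compared in this way.

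**Figure D5:**
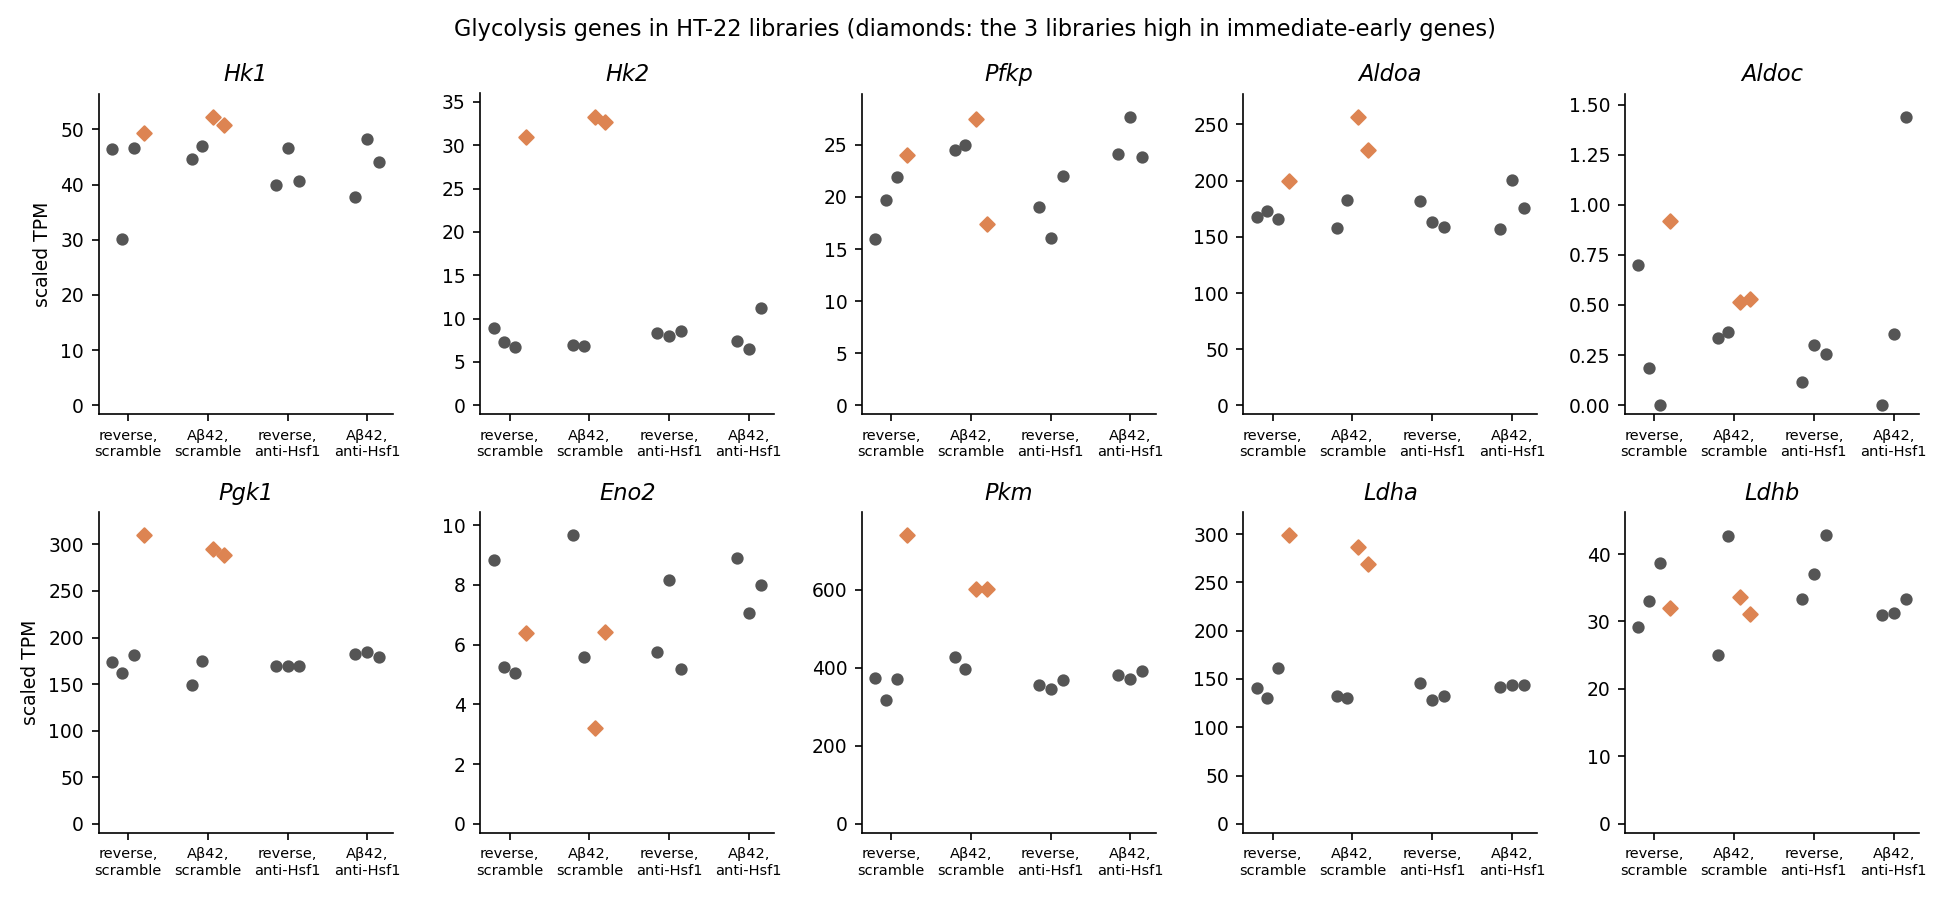
Each gene in scaled TPM in the 4 HT-22 groups, with a point per library; diamonds are the 3 libraries with summed immediate-early genes above 1000 scaled TPM. Hk2, Pgk1, Pkm and Ldha are higher in the diamonds than in all 11 other libraries, while Ldhb, Eno2 and Pfkp overlap them.

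Relative depth in the 3 libraries was 1.63, 1.20 and 2.60, the highest value of the 14 included, and summed microglial markers were 77.18, 78.55 and 77.27 scaled TPM against 34.53 to 43.25, although P2ry12, Itgam and C1qa were listed at 0 in all libraries. Of that list Tmem119 reached 54.8 and 54.3 scaled TPM in the 2 scramble groups and 13.7 at most under anti-Hsf1 LNA. The part of either in the values above was not tested. The errors narrowed when the 3 libraries were left out. For Hk2, anti-Hsf1 against scramble LNA with Aβ42 went from -0.84 (SE 0.58, limma adjusted p = 0.602) to 0.22 (SE 0.21, adjusted p = 0.835), and for Ldha from -0.41 (SE 0.31) to 0.13 (SE 0.10, adjusted p = 0.791). For Aβ42 against reverse peptide under scramble LNA, Hk2 went from 0.45 (SE 0.54) to -0.13 (SE 0.21), and Pkm from 0.23 (SE 0.23) to 0.22 (SE 0.10, limma adjusted p = 0.661). No member was called without the 3 libraries, a choice made after seeing the data. Over the other 11 libraries, the genes most like Pgk1, Pkm, Ldha and Hk2 in log2 level, of 9365 compared, were Rps2-ps13 (r = 0.97), Ddx49 (0.95), Eef2kmt (0.91) and Dnase2a (0.89).

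Under anti-Hsf1 LNA no library stood apart in immediate-early genes, and the spread within the groups differed between members. Hk2 ran from 7.99 to 8.59 with reverse peptide and from 6.49 to 11.2 with Aβ42. Eno2 ran from 5.18 to 8.18 and from 7.05 to 8.89. Pkm, Pgk1, Ldhb and Pfkp, given next, were the members whose values did not overlap between the peptides. With groups of 3 such separations also arise by chance. Pkm was at 357, 345 and 369 with reverse peptide and at 381, 371 and 393 with Aβ42, Pgk1 at 169 in all 3 and at 182, 184 and 179, and Ldhb at 33.4, 37.0 and 42.8 against 31.0, 31.2 and 33.3. Pfkp was at 19.0, 16.1 and 22 against 24.1, 27.7 and 23.8. The changes were 0.10 for Pkm, 0.11 for Pgk1, -0.23 for Ldhb and 0.39 for Pfkp (limma adjusted p = 1 for each). The 95% intervals, -0.47 to 0.66 for Pkm and -1.36 to 1.32 for Hk2, hold sizeable changes in either direction. They rest on a spread shared by all 14 libraries, the 3 that stood apart included. Without those 3 the same change of Pkm had an SE of 0.09 in place of 0.26 (limma adjusted p = 0.744). That of Hk2 had an SE of 0.18 in place of 0.62 (limma adjusted p = 0.984). Pfkp transcripts share a stretch of 748 bases with those of Pitrm1 on the opposite strand, which was at a mean of 68.6 TPM in HT-22 against 22.5 for Pfkp. The kit named in the labels does not mark strand, so reads of the overlap cannot be assigned between them.

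Isoform shares in HT-22 were compared within strata in the same way. Anti-Hsf1 against scramble LNA gave a difference of -7.58 percentage points for the Hk2 share (exact permutation p = 0.198, adjusted p = 0.494) and 4.02 for the Ldhb share (exact p = 0.134, adjusted p = 0.494). Without the 3 libraries the Hk2 difference was 1.72 points, of the other sign. Aβ42 against reverse peptide gave 2.02 for the Hk2 share and -2.45 for the Ldhb share (exact p = 0.764 and 0.271).

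Promoters of the 4 enzymes with the clearest values in the 3 libraries are shown beside that of Eno2, which overlapped the others there. Each line gives the 250 bases before the start of transcription from RefSeq (GRCm38.p6), 5′ to 3′, with ACGTG or GCGTG on either strand in capitals, the core letters of the hypoxia response element. The 5 genes were chosen after the values were seen, with the first listed start site of each.
Hk2, chr6:82774455-82774704, minus strand: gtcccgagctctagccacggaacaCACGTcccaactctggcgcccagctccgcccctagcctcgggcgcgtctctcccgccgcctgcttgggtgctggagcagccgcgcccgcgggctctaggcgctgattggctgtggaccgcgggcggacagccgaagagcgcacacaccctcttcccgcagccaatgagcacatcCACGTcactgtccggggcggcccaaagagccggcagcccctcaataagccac
Ldha, chr7:46845554-46845803, plus strand: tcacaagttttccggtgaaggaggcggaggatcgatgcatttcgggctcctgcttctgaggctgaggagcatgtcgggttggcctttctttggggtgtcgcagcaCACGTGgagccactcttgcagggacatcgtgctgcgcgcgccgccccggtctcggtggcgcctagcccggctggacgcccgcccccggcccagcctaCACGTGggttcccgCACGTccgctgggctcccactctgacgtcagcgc
Pgk1, chrX:106186850-106187099, plus strand: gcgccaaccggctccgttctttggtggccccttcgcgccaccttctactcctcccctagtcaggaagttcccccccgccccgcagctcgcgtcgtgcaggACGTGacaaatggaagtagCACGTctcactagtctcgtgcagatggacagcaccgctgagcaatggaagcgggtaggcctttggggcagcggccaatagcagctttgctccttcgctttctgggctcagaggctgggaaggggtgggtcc
Pkm, chr9:59656326-59656575, plus strand: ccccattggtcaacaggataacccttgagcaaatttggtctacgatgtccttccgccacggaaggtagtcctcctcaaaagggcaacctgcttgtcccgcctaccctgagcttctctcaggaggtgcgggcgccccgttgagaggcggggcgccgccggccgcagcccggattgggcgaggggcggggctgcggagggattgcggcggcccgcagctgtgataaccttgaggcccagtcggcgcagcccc
Eno2, chr6:124769674-124769923, minus strand: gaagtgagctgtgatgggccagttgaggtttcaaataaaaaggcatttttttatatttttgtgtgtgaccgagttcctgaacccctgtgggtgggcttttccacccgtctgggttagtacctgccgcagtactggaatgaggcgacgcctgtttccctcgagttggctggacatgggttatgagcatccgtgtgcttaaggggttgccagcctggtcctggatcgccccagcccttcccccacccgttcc

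Hk2 holds the letters at 226 and 52 bases before its start and Pgk1 at 150 and 131. Ldha holds them at 3 places, 2 of which read CACGTG and so count on both strands. Pkm holds none at the site shown and 1 match at its other listed start site, and Eno2 holds none. Of all 32851 promoter windows of this length, 38.6% hold ACGTG or GCGTG, 16.6% ACGTG alone and 6.02% CACGTG. The other members matched too: 9 of the 10 genes, and 12 of their 16 listed start sites, hold at least 1 match. Among them are Ldhb, Pfkp, Aldoa and Aldoc, which like Eno2 did not stand apart in HT-22. Eno2 was the only member without a match, so the promoters shown do not compare members that stood apart with those that did not. The letters of the heat shock element, GAANNTTC or TTCNNGAA, which Hsf1 is known to bind when repeated, occur in 1 of the 16 member windows, that of Eno2, and in 12.8% of all windows. A match of letters is a description and shows no binding.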

How the data were processed

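Long RNA was depleted of ribosomal RNA, fragmented and made into libraries with a kit that does not mark strand, per the labels' protocols. The submitters' processing notes name cutadapt 1.18, HISAT2 2.1.0, StringTie 1.3.4d and the builds mm10 and GRCm38, with no roles given. Per the file headers, each deposited table gives per gene the coverage (mean read depth), FPKM and TPM that the authors computed, with no counts. Here TPM was summed per gene identifier, and 98.2% of the identifiers shared with GENCODE M21 had its coordinates. Libraries were scaled by the median of ratios over genes above 0 in every library (20713 in hippocampus, 16878 in HT-22), because abundant noncoding RNA takes a varying share of TPM. Deposited coverage and FPKM served only for depth.

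Differences were tested with limma 3.58.1 (R 4.3.3, trended and robust variance) on log2(scaled TPM + 1) over genes with a mean of at least 1 TPM, with all groups of a system in 1 fit. Isoform shares were compared by two-sided exact permutation within age, peptide or LNA, adjusted over 15 tests. Near-identical copies were found with blastn 2.17.0 at 95% identity over 100 bases. The code was tested on simulated data, with Python 3.11.15, numpy 2.4.6 and pandas 2.3.3. For APP mice at 12 against 3 months, a simulated log2 change of 0.5 was called in 21% of changed genes and 1 in 80%. For anti-Hsf1 against scramble LNA with Aβ42 the values were 5% and 71.5%. Many changes of 0.5 would thus go uncalled. The changed genes were simulated at levels above that of Hk2 in hippocampus.

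The genes, the lists and the tests were chosen with earlier results of these data known. All 10 genes are named, with Gapdh, Eno1, Pfkl, Pfkm, Tpi1, Gpi1, Slc2a1 and Slc2a3, other pathway genes called (up to 6 by adjusted p), and the 2 genes most correlated with each. Hk3, Pgam1, Slc16a1, Slc16a3, Pfkfb3, Pfkfb4, Pdk1, Vegfa, Adm, P4ha1, Hif1a, Bnip3, Car9, Ndrg1, Ero1l, Ankrd37, Egln3 and Tmem119 were picked after their values were seen. In HT-22, likeness is given without the 3 libraries that stood apart. Short-RNA libraries were not analysed here. Alternatives were deposited TPM, other scalings, another pseudocount and filter, array weights, a replicate block, fits of the compared groups alone and leaving out each library.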

Additional observations from a re-analysis of the deposited data

Results flagged for a closer look

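Among 32 sets of values tested, each 1 gene identifier or isoform share in an HT-22 group of 4 libraries, 4 held a sample far from its fellows, where chance marks about 1 in 20. All 4 were in the group with reverse peptide and scramble LNA. In replicate 4 of that group, Hk2 was at 30.9 scaled TPM against 6.75 to 8.97 in the other 3, Pgk1 at 310 against 162 to 181, and Pkm at 740 against 318 to 374. This is 1 of the 3 libraries with high immediate-early genes. In replicate 2, which is not among those 3, Hk1 was at 30.1 against 46.4 to 49.3.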

How the results depend on the processing

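The tests on these genes came to 2988 member values under alternatives. Of these, 20 gained a call, 9 lost one and 9 changed direction with a call. Most gains came on TPM as deposited, where the median of all genes shifts by 0.60 at 6 months (APP against WT) and by -0.62 for anti-Hsf1 against scramble LNA with Aβ42. On that scale 8 members were called for APP against WT at 6 months, among 10339 of all 17840 genes. For genotype by age 3 members were called, among 5910 of all genes. In HT-22, 1 member was called for Aβ42 against reverse peptide under anti-Hsf1 LNA, among 4197 of all 17291 genes. There were 8 for anti-Hsf1 against scramble LNA with Aβ42 (8766 genes) and 3 for peptide by LNA (4379 genes). As reported, 0 members were called in each. These counts thus go with a large share of all genes called. The directions that turned were Hk1 0.63, Pfkp 0.58, Aldoa 0.51, Aldoc 0.66, Pgk1 0.50, Eno2 0.65 and Pkm 0.49 at 6 months, Eno2 0.25 in the genotype by age test, and Pfkp -0.58 for anti-Hsf1 against scramble LNA with Aβ42. Array weights called 3 members in the last comparison (Hk2, Pkm and Ldha), a count not set here against that of all genes. For APP mice at 12 against 3 months the number called went from 1 to 0 under quantile normalisation, without a filter, with a mean of at least 5 TPM (where Hk2 is not tested) and with only the 2 groups fitted.

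Leaving out 1 library gave 0 to 1 members called for APP against WT at 6 months (Ldha), for APP mice at 6 against 3 months (Ldhb) and for APP mice at 12 against 3 months (Hk2), with the libraries named beside those results. With the replicate number as a block, Hk2 stayed at 1.02 (limma adjusted p = 0.0468) and no call changed. Same-numbered libraries did not deviate together (median r of -0.01 in hippocampus and 0.02 in HT-22), so the numbers were not taken as pairs. Fits of the compared groups alone were not run for interactions.

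None of 280 share results under alternatives passed, and 21 changed sign. The sign changes were -0.0549 for Aldoc by LNA as a log2 ratio, 0.00471 for Eno2 by peptide with copies added, and, without the 3 libraries, 0.664 (Eno2 by peptide), -0.0643 (Eno2 by LNA), -1.68 (Hk2 by peptide), 1.72 (Hk2 by LNA) and -0.654 (Pfkp by LNA). Leaving out 1 library gave -0.0411 to 0.162 for Aldoc by peptide, -0.116 to 0.0877 for Aldoc by LNA, -0.709 to 0.376 for Eno2 by peptide and -0.171 to 4.82 for Hk2 by peptide. For APP against WT it gave -1.78 to -0.0967 for Eno2 and -2.09 to -0.943 for Pfkp. Beyond the settings that change the genes or samples fitted, the cause was not tested. Coverage limits Hk2 in hippocampus and Aldoc in HT-22, whose median read depth was 1.39 and 0.135.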
